A study of Bos taurus with 81 samples.

Results

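H3K9me3, trimethylation of lysine 9 on histone H3, was compared between bovine germinal vesicle oocytes (GV) and 2-cell embryos (2C) through the peak lists of 2 GV and 2 2C libraries. These are 4 of the 18 H3K9me3 libraries and 4 of the 81 libraries in the series. The 4 lists were taken by mark and stage from the labels, and they were read on autosomes 1 to 29. Each autosome was divided into bins of 5 kb, and a bin was called marked in a library where at least 50% of it lay under peaks. Bins marked in all 4 libraries were called kept, bins marked in both GV and in no 2C library were called lost, and bins marked in both 2C and in no GV library were called gained.

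The series profiled H3K4me3, H3K27ac, H3K27me3 and H3K9me3 by CUT&Tag, a method in which an antibody brings a transposase to the marked chromatin, with 2 libraries per mark and stage. The GV oocytes came from slaughterhouse ovaries and were taken before maturation in vitro. The 2C embryos came from oocytes that were matured and fertilised in vitro with thawed semen, and were collected 32 h after insemination. The zona pellucida was removed with pronase, about 500 oocytes or 1000 to 1500 blastomeres went into a library, and both groups are labelled as controls without the RNA polymerase II inhibitor α-amanitin. Each library is thus a pool, which shows no difference between single oocytes or embryos, and between the 2 groups lie maturation, fertilisation and the first cleavage. The labels do not say whether the 2 libraries of a group came from separate collections, so every p-value below measures only the spread between these samples, which may be technical. With 2 against 2 libraries an exact two-sided permutation test cannot give a p below 0.333, so no difference between the stages could pass a threshold of 0.05 here.

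H3K9me3 is a mark of heterochromatin. It is written by methyltransferases such as SETDB1 and the SUV39H enzymes, it is bound by HP1 proteins, and it is known for silencing transposons and other repeats. After fertilisation the mark inherited from the oocyte is remodelled in the early embryo. H3K27me3, the mark of Polycomb repression, and H3K4me3, a mark of active and poised promoters, are classically found in other chromatin than H3K9me3.

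H3K9me3 covered less of the autosomes at 2C than in GV oocytes. The covered length was 188 Mb and 186 Mb in the GV libraries, and 127 Mb in either 2C library. As shares of the autosomes these are 7.54% and 7.47% in GV and 5.10% and 5.09% at 2C. The groups did not overlap. The means were 187 Mb ± 1.13 (SD, n = 2) in GV and 127 Mb ± 0.136 at 2C, a log2 ratio of -0.56 (exact permutation test, p = 0.333). Peak number did not separate the stages, with 17915 and 14714 autosomal peaks in GV and 14529 and 15860 at 2C.

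The domains were also narrower at 2C. The median peak width was 8.0 kb and 9.8 kb in GV and 6.6 kb and 6.0 kb at 2C. Both 2C libraries lay below both GV libraries, with means of 8.90 kb ± 1.27 (SD, n = 2) and 6.30 kb ± 0.424 and a log2 ratio of -0.49 (exact permutation test, p = 0.333). Peaks of 20 kb or more held 28.8% and 35.1% of the covered bases in GV, and 22.9% and 20.1% at 2C. Such wide peaks numbered 1709 and 2056 in GV and 944 and 844 at 2C, and the widest was 189 kb in each GV library and 178 kb and 153 kb at 2C. The narrow end moved the same way, with a 10th percentile of width of 4.0 kb and 5.0 kb in GV and 3.2 kb and 3.0 kb at 2C.

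**Figure D1:**
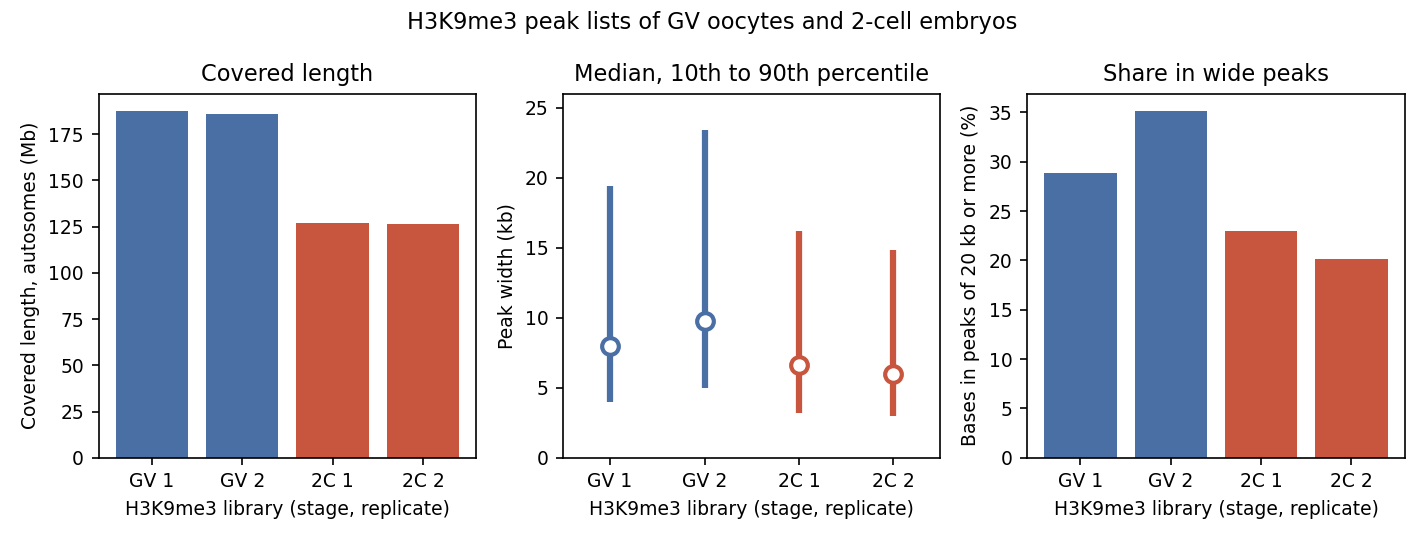
Covered length of the autosomes in Mb (left), peak width in kb with the median as a circle and the 10th to 90th percentile as a line (middle), and the percentage of covered bases in peaks of 20 kb or more (right), for each of the 2 GV (blue) and 2 2C (red) H3K9me3 libraries. Both 2C libraries lie below both GV libraries in covered length, median width and the share in wide peaks.

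The lists give no library totals, so the sequencing depth is unknown. A number deposited with each peak, a score whose meaning was not established, moved with the covered length. The 1st percentile of score per kb was 15.3 and 16.4 in GV and 10.2 and 10.0 at 2C. A wider mark and a more deeply sequenced or more permissively called library cannot be told apart from these lists, and the part of depth in the shorter 2C lists was not tested. To look at place without length, every list was also trimmed to the 127 Mb of the shortest by removing its lowest-scored peaks. Trimmed lists hold equal lengths by construction, so they can show which bins differ in rank but no net loss.

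Of the 497623 autosomal bins, 30163 were marked in both GV libraries and 19540 in both 2C libraries. Kept bins numbered 15037, which is 3.02% of all bins and 49.9% of those marked in both GV libraries. They made up 77.0% of the bins marked in both 2C libraries, so most of the mark at 2C lay where the oocyte had it. Lost bins numbered 9288, which is 1.87% of all bins and 30.8% of those marked in both GV libraries. Gained bins numbered 3326, which is 0.668% of all bins and 17.0% of those marked in both 2C libraries. A further 19.4% of the bins marked in both GV libraries were marked in 1 of the 2C libraries, and 6.02% of those in both 2C libraries were marked in 1 of the GV libraries. The classes were set by these same libraries, so the counts are a description with no test.

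Lost bins outnumbered gained bins 2.79 to 1 in the lists as deposited, and the order turned when the lists were trimmed to equal length. With trimming by score, 3717 bins were lost, 18.4% of those in both GV libraries, and 4768 were gained, 24.4% of those in both 2C libraries. With trimming by score per kb, 3594 were lost and 4341 gained. Trimming shortened the GV lists of 188 Mb and 186 Mb and left the 2C lists of 127 Mb almost whole. Gained bins added by trimming were therefore marked in a GV list as deposited, and kept bins fell from 15037 to 12877 with trimming by score. The excess of losses thus holds for the lists as deposited, and the turned order is no sign of more gains than losses. The counts also move with the number of libraries that a class must satisfy. Leaving out GV replicate 1 or 2 gave 15486 or 16167 lost bins, and leaving out 2C replicate 1 or 2 gave 6089 or 5623 gained bins, each over 1.5 times the count with all 4 libraries.

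Most lost and gained bins were not close to the 50% limit. Of the lost bins, 70.6% had no covered base in either 2C library, and in 1011 the higher of the 2C coverages was 40% to just under 50%. Of the gained bins, 87.3% had no covered base in either GV library, and in 164 the higher GV coverage was 40% to just under 50%. In the stage that marked them, 1168 lost bins had a lower GV coverage of 50% to just under 60%. The lower 2C coverage lay in that range in 517 gained bins. Among kept bins, 1165 had a lower 2C coverage of 50% to just under 60%, just inside the limit. The mean coverage of lost bins was 84.7% and 87.5% in GV and 5.86% and 5.83% at 2C.

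The classes were then called from 1 GV and 1 2C library and followed in the other GV and 2C library, which the call had not used. Of bins called kept, 77.3% to 80.3% were kept again over the 4 choices of libraries. Of bins called lost, 46.8% to 49.8% were lost again, and of those called gained, 45.9% to 50.0% were gained again. Over all autosomal bins, 3.76% to 3.91% were kept in the other pair, 3.75% to 3.99% lost and 1.34% to 1.45% gained. Of bins called kept, 14.1% to 16.6% were lost in the other pair, and of bins called lost, 13.7% to 16.6% were kept there. A further 32.2% to 35.6% of bins called lost were marked in neither library of the other pair, so part of the single-library losses lay in bins that the other GV library did not mark. How often a loss would recur by chance among GV bins was not tested. In single pairs of libraries the lost share of GV bins was 48.9% to 51.5% and the gained share of 2C bins 25.5% to 27.9%, higher than with both replicates required.

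Lost bins lay in shorter runs than kept bins. Lost bins are also the fewer, and no run length expected from the size of a class was computed. Runs of adjoining kept bins numbered 6188, of which 47.5% were a single bin, and runs of 4 bins or more held 47.7% of kept bins. Lost bins formed 6253 runs, of which 67.1% were a single bin, and runs of 4 or more held 11.7% of them. Gained bins formed 2201 runs with 69.8% single bins and 16.9% of bins in runs of 4 or more. Direct contact with a kept bin was found for 18.4% of lost bins and 9.89% of gained bins. Bins marked in some libraries but in none of these classes can lie between a kept stretch and a lost or gained bin. Contact across such bins was not counted and no expected share was computed, so how many lay at the edge of a kept domain was not tested. The longest run was 190 kb for kept, 50 kb for lost and 100 kb for gained bins.

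Narrow oocyte domains were those that the 2C lists most often lacked. Of GV peaks under 5 kb, 56.6% to 69.1% had no base in a 2C list, over the 4 pairs of libraries. That share was 54.8% to 58.9% for peaks of 5 kb to 10 kb, 31.5% to 35.9% for 10 kb to 20 kb and 5.03% to 7.10% for 20 kb and over. Narrow peaks were also the ones that replicates shared least: in the other GV list 17.0% to 39.5% of GV peaks under 5 kb and 0.117% to 0.146% of those of 20 kb and over had no base. Of GV peaks of 20 kb and over, 52.0% to 56.6% touched 2 or more peaks of a 2C list, against 30.3% to 43.2% for 2 or more peaks of the other GV list. Of 2C peaks of that width, 17.1% to 20.7% touched 2 or more peaks of a GV list and 35.8% to 44.6% of the other 2C list. In the other direction, 39.2% to 43.6% of 2C peaks under 5 kb and 4.98% to 5.93% of those of 20 kb and over had no base in a GV list. The former share was 32.4% to 37.7% against the other 2C list. A wide peak touches another list more easily than a narrow one, and how far width alone sets these shares was not tested.

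Rank within a list moved the same way as width. GV peaks with no base in either 2C list had a median percentile of score per kb of 29.9 in replicate 1 and 26.5 in replicate 2 within their own list. GV peaks with at least 50% of their bases in both 2C lists had a median percentile of 77.4 in both replicates. At 2C the peaks without a GV base were at a median percentile of 38.7 and 39.2, and those at least 50% covered in both GV lists at 57.5 and 57.2. GV peaks absent from both 2C lists thus tended to rank low in their own list, in both replicates. They were also narrower, with a median width of 6.4 kb and 8.2 kb against 10.8 kb and 12 kb. The rank of GV peaks absent from the other GV list was not computed. How far low rank goes with absence from any second list was therefore not tested.

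Coverage was lower in both 2C libraries than in both GV libraries on all 29 autosomes, but the size of the difference varied. The log2 ratio of covered percentage had a median of -0.53 and ran from -1.12 to -0.25. The lowest ratio was on chromosome 24, which was covered to 7.52% and 7.20% in GV and to 3.35% and 3.40% at 2C. Chromosome 9 followed with 4.28% and 4.02% in GV and 2.07% and 1.89% at 2C, a log2 ratio of -1.07. Chromosome 20 had 6.29% and 5.98% in GV and 3.08% and 3.12% at 2C, a log2 ratio of -0.99. These 3 are among the 5 autosomes with more lost than kept bins, and lost bins made up 49.7% of the bins marked in both GV libraries on chromosome 9.

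The autosomes with the ratios nearest to 0 were 18, 19 and 7. Chromosome 18 was covered to 13.6% and 13.7% in GV and to 11.4% and 11.5% at 2C, a log2 ratio of -0.25. Chromosome 19 had 14.5% and 14.8% in GV and 11.8% and 11.9% at 2C, a log2 ratio of -0.31. Chromosome 7 had 7.66% and 7.40% in GV and 5.87% and 6.02% at 2C, a log2 ratio of -0.34. Over the 29 autosomes the ratio was higher where GV coverage was higher (Spearman's rho 0.590, Pearson's r 0.510), and it had little relation to chromosome length (rho -0.04). These are correlations across chromosomes of the same 4 libraries and a description only.

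**Figure D2:**
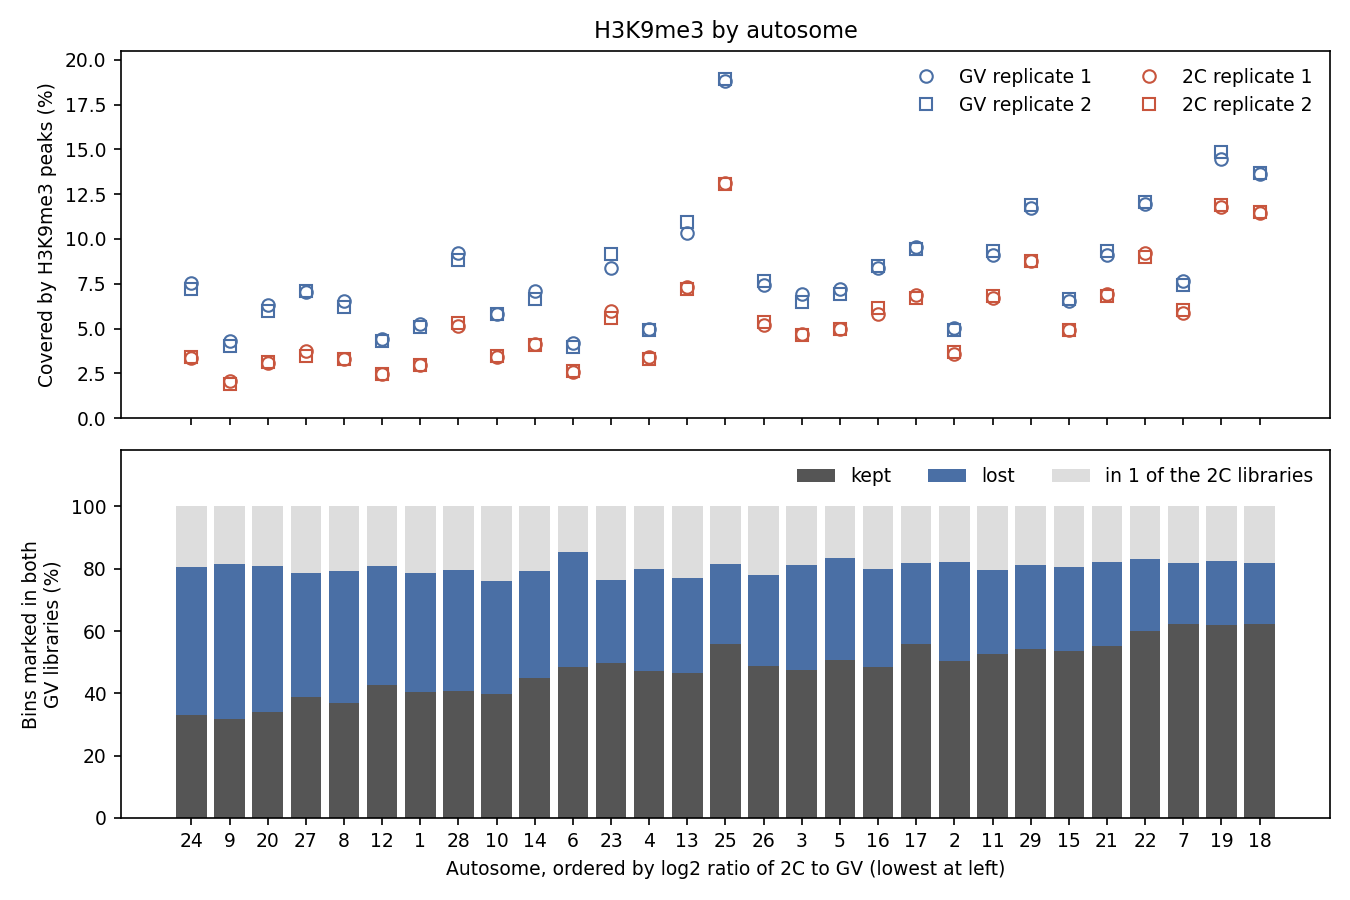
Percentage of each autosome covered by H3K9me3 peaks in the 2 GV (blue) and 2 2C (red) libraries (top), and the percentage of the bins marked in both GV libraries that were kept, lost or marked in 1 of the 2C libraries (bottom), with autosomes ordered from the lowest to the highest log2 ratio. Every red pair lies below its blue pair, and the lost share is near 50% on chromosomes 24, 9 and 20 and near 20% on 7, 19 and 18.

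The order of the chromosomes was similar in separate libraries. Ratios from 1 GV and 1 2C library ranked the autosomes like those from the remaining GV and 2C library, with rho of 0.919 for one way of pairing the libraries and 0.951 for the other. In lists trimmed to equal length by score, the number of autosomes lower in both 2C libraries dropped from 29 to 11, and another 11 were higher in both. Lists of equal length cannot be lower on every autosome, so a drop from 29 was fixed by the trimming. The trimmed log2 ratios ran from -0.33 to 0.31 and ranked the autosomes like the deposited lists with rho of 0.674. Chromosomes 24 and 20 were still low at -0.32 and -0.28, while chromosome 9, the second lowest as deposited, was at -0.03. Chromosome 27 was lowest at -0.33. Chromosome 18 was at 0.18, and the highest was chromosome 2 at 0.31, after -0.45 in the deposited lists.

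Coverage at the far ends of the chromosomes did not separate the stages in the lists as deposited. In the last 2 Mb of the autosomes the GV libraries covered 19.9% and 21.0% and the 2C libraries 21.0% and 20.7%, and the groups overlapped. Over 10 Mb from either end coverage was 6.08% and 5.94% in GV and 3.59% and 3.64% at 2C, a log2 ratio of -0.73. The first 2 Mb lay between, with 10.1% and 9.49% in GV and 8.37% and 8.35% at 2C, a log2 ratio of -0.23. From 2 Mb to 10 Mb the log2 ratio was -0.70 on the side of the start and -0.30 on the side of the end. Zones were read only in the deposited lists, which are longer in GV, so relative change by zone was not tested. The last 2 Mb make up 2.33% of the bins and held 15.03% of gained, 10.3% of kept and 3.54% of lost bins. Cattle autosomes are acrocentric, so the start of the sequence is the centromeric end. The end of each autosome was taken as the highest peak end in any list.

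Of 2502 windows of 1 Mb, 811 held a gained bin and 1603 a lost bin. The 250 richest in gained bins held 71.1% of them and the 250 richest in lost bins held 46.4% of those, but gained bins are the fewer, which by itself raises this share, and clustering was not tested. The 3 windows with most gained bins, at most 1 per chromosome, all lay towards the far end of their chromosome. On the ARS-UCD1.2 build they were chr11:104000001-105000000 with 49 gained bins, chr5:118000001-119000000 with 44 and chr6:114000001-115000000 with 41, on chromosomes of 107 Mb, 120.1 Mb and 117.8 Mb. In the chromosome 5 window H3K9me3 covered 0.580% and 2.20% in GV and 30.1% and 26.9% at 2C, so that window was nearly free of the mark in the oocyte. H3K27me3 had covered 76.9% and 76.2% of it in GV and H3K4me3 43.3% and 50.2%.

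The window with most lost bins was chr29:38000001-39000000, with 59 lost of 200 bins. H3K9me3 covered 50.6% and 49.2% of it in GV and 9.90% and 9.44% at 2C. It was followed by chr8:106000001-107000000 with 55 lost bins and chr1:140000001-141000000 with 53. The chromosome 8 window went from 48.0% and 47.8% in GV to 12.9% and 8.76% at 2C, and the chromosome 1 window from 42.9% and 39.3% to 5.62% and 5.58%. None of these 3 windows held a gained bin. They differed in other marks, since H3K27me3 covered 57.3% and 60.3% of the chromosome 29 window in GV and at most 7.88% of the others in any GV library.

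The other marks were measured in 12 separate GV and 2C libraries, which were not used to choose the bins. Whether lists of different marks at a stage share signal that also entered the choice was not tested. At kept bins H3K27me3 was far more abundant at 2C than in GV. H3K27me3 peaks covered 11.7% and 13.4% of the bases of kept bins in GV, and 54.8% and 66.3% at 2C. Over the autosomes as a whole H3K27me3 went the other way, from 9.55% in both GV libraries to 4.42% and 5.26% at 2C. Divided by the autosomal percentage of the same library, kept bins stood at 1.23 and 1.40 in GV and at 12.4 and 12.6 at 2C, a log2 ratio of 3.25. In the oocyte these heterochromatic bins thus held about as much H3K27me3 as the autosomes, and at 2C they held it at over 12 times the autosomal density.

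Gained bins carried H3K27me3 at both stages. H3K27me3 covered 51.7% and 49.4% of them in GV, before H3K9me3 was called there, and 60.9% and 70.6% at 2C. Relative to the autosomes these are 5.42 and 5.17 in GV and 13.8 and 13.4 at 2C, a log2 ratio of 1.36. Lost bins had little of the mark, 6.25% and 6.41% in GV and 7.67% and 10.2% at 2C, which is below the autosomal value in GV (0.655 and 0.671 of it) and above it at 2C (1.73 and 1.94), a log2 ratio of 1.47. In bins marked by H3K9me3 in none of the 4 libraries the mean H3K27me3 coverage was 9.18% ± 0.0253 (SD, n = 2) in GV and 1.76% ± 0.128 at 2C.

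H3K4me3 was sparse at kept and lost bins and dense at gained bins. It covered 0.866% and 1.15% of kept bins in GV and 2.25% and 1.88% at 2C, with 0.597% and 0.732% against 1.35% and 1.19% for lost bins. Of gained bins it covered 33.0% and 39.7% in GV and 25.6% and 24.9% at 2C. The autosomal values were 5.67% and 7.08% in GV and 4.57% and 4.49% at 2C, so gained bins held 5.83 and 5.61 times the autosomal H3K4me3 in GV and 5.60 and 5.54 times at 2C. That relative level differed little between the stages, with a log2 ratio of -0.04 that turned to 0.12 when bins with any covered base were counted. Relative to the autosomes H3K4me3 was higher at 2C in both kept and lost bins, by log2 ratios of 1.53 and 1.43.

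H3K27ac, a mark of active enhancers and promoters, was scarce at kept and lost bins in GV. It covered 0.474% and 0.549% of kept bins in GV and 1.77% and 2.51% at 2C, while the autosomal value went from 5.09% and 5.70% to 2.21% and 2.72%. Relative to the autosomes kept bins were at 0.0931 and 0.0963 in GV and 0.799 and 0.921 at 2C, a log2 ratio of 3.18. Lost bins were at 0.0747 and 0.0750 in GV and 0.540 and 0.550 at 2C, a log2 ratio of 2.86. The strong depletion of H3K27ac in GV H3K9me3 bins was thus much weaker in the 2C lists, in bins that kept H3K9me3 as well as in those that lost it. The 2 H3K27ac lists of 2C shared less with each other than the 2 of GV. How far this sets the difference was not tested.

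Gained bins had 8.75% and 10.2% of their bases under H3K27ac in GV and 2.83% and 4.28% at 2C, a relative log2 ratio of -0.31 that was -0.16 without 2C replicate 1. The 2 H3K27ac 2C lists shared little, with a Jaccard index (shared bases over bases in either list) of 0.284. In all 9 combinations of mark and class the GV and 2C libraries did not overlap in relative coverage. Each gave the smallest p the design allows (exact permutation test, p = 0.333, Benjamini-Hochberg adjusted over the 9, p = 0.333). For H3K4me3 at gained bins the gap was narrow, from 5.61 in GV replicate 2 to 5.60 in 2C replicate 1. Each mark also failed to overlap in bins that no H3K9me3 list of GV or 2C marked, and in the remaining bins outside the classes. Non-overlap is thus not particular to kept, lost or gained bins.

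**Figure D3:**
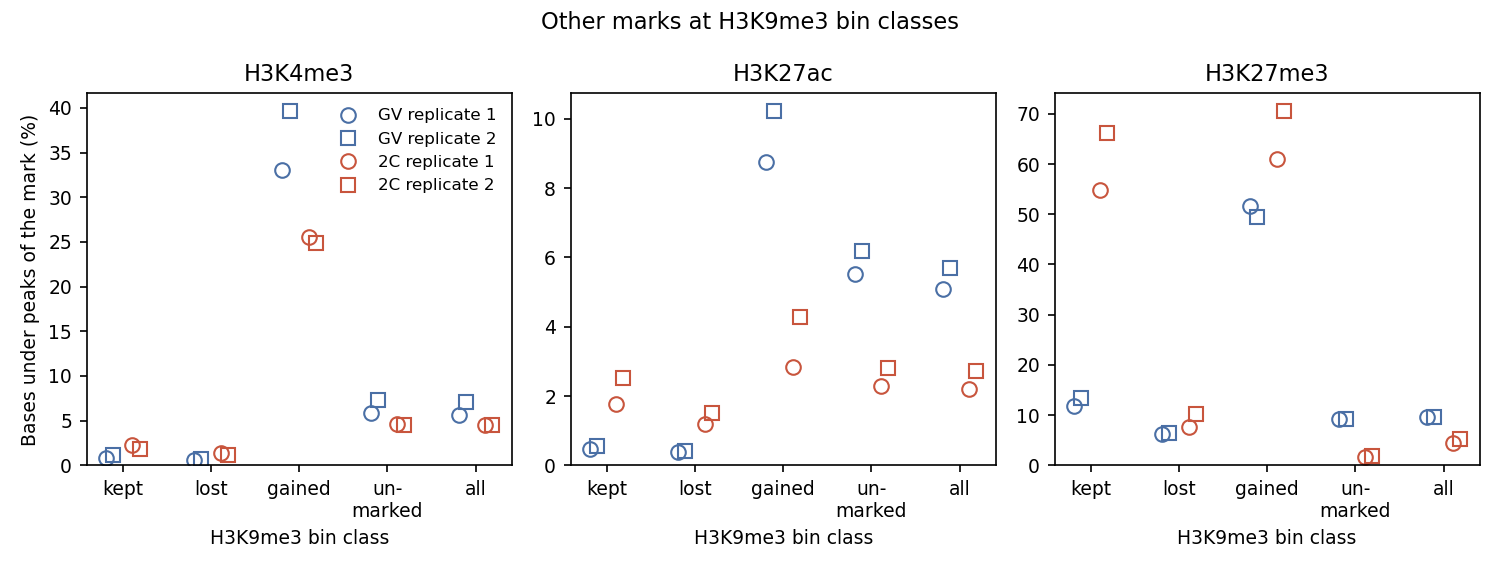
Percentage of bases under H3K4me3, H3K27ac and H3K27me3 peaks in kept, lost, gained and unmarked H3K9me3 bins and in all autosomal bins, with 1 symbol for each of the 2 GV (blue) and 2 2C (red) libraries. H3K27me3 in kept bins lies at 11.7% and 13.4% in GV and at 54.8% and 66.3% at 2C, while in unmarked bins it is lower at 2C.

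The peaks of H3K9me3 and H3K27me3 themselves came to overlap at 2C. In GV, 8.28% to 9.32% of the H3K9me3 length lay under H3K27me3 peaks over the 4 pairs of libraries, which is 0.868 to 0.976 of the overlap expected from the covered shares alone. At 2C, 48.3% to 59.9% of the H3K9me3 length did, 10.9 to 11.4 times the expected overlap. The Jaccard index between the marks was 0.0379 to 0.0427 in GV and 0.349 to 0.417 at 2C. Between the replicates of a mark it was 0.633 for H3K9me3 and 0.616 for H3K27me3 in GV, and 0.583 and 0.544 at 2C. The lists of the 2 marks at 2C were thus less alike than replicates of 1 mark, and how the overlap arose was not tested.

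By bin, 8605 autosomal bins gained H3K27me3 by the same rule, 1.73% of all bins, and 70.5% of these were bins that kept H3K9me3. Bins marked by H3K9me3 in both 2C libraries made up 80% of them. Of kept bins, 40.4% gained H3K27me3 and 8.88% had it at both stages. Lost bins gained H3K27me3 in 1.42% of cases, which is below the autosomal share. Among gained bins 42.2% had H3K27me3 at both stages, against 1.40% of all bins, and 16.5% gained it together with H3K9me3. H3K4me3 at both stages was found in 18.6% of gained bins and in 1.42% of all bins.

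The state of a bin in the oocyte went with its chance of H3K9me3 at 2C. Of 451127 bins free of H3K9me3 in both GV libraries, 0.737% were gained. Among those with both H3K4me3 and H3K27me3 in both GV libraries, 859 of 7178 were gained, or 11.97%. These bins were marked by H3K9me3 in 15.2% of cases in 2C replicate 1 and in 16.4% in replicate 2. With H3K4me3 alone 140 of 4534 bins were gained (3.09%), with H3K27me3 alone 480 of 23163 (2.07%), and with neither 1244 of 386891 (0.322%). The order held in each 2C library. Bins with one of the marks in a single GV library were left out of this count.

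Oocyte H3K27me3 also went with a higher kept share of H3K9me3. Of the 2047 bins with H3K9me3 and H3K27me3 but no H3K4me3 in the GV libraries, 67.1% were kept and 21.8% lost. Of the 26509 with H3K9me3 alone, 47.3% were kept and 32.2% lost. Only 80 bins had all 3 marks in the oocyte, of which 57.5% were kept, and 3 bins had H3K9me3 with H3K4me3 alone. Bins of a run share a domain and are not replicates, so these shares carry no test.

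**Figure D4:**
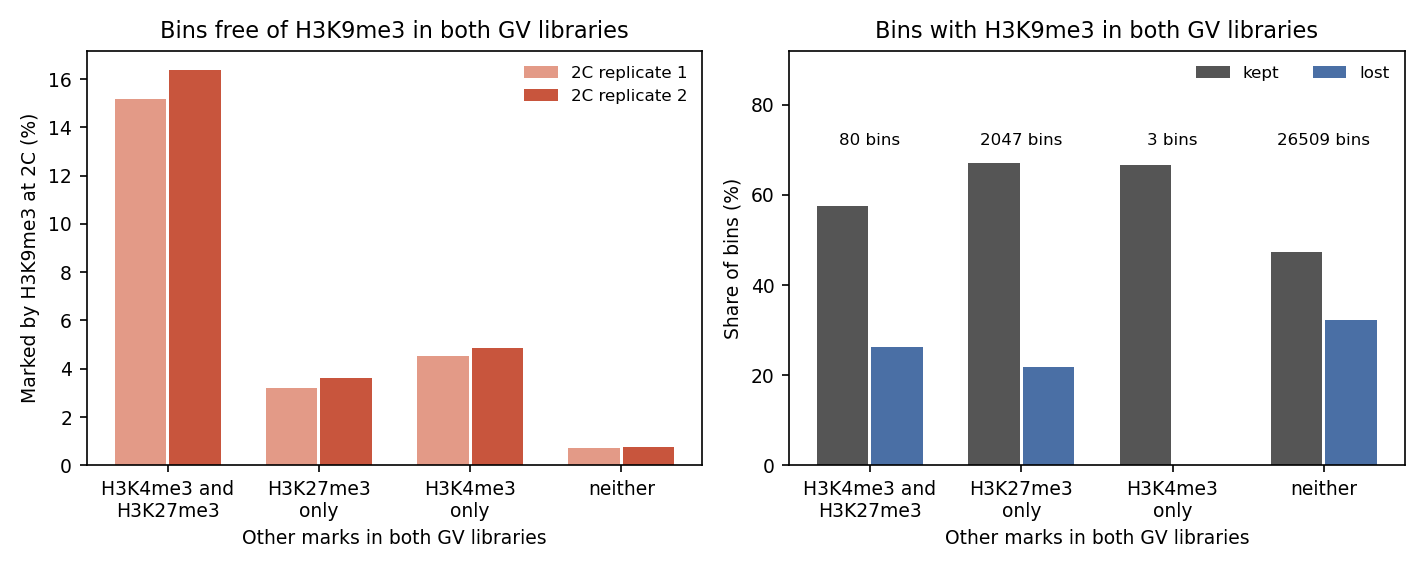
Bins sorted by H3K4me3 and H3K27me3 in both GV libraries: the percentage of bins free of H3K9me3 in GV that were marked in each 2C library (left), and the percentage of bins with H3K9me3 in both GV libraries that were kept or lost (right, with the number of bins above). H3K9me3 appeared at 2C in 15.2% and 16.4% of the free bins with both marks and in under 1% of those with neither.

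Later H3K9me3 libraries, which played no part in choosing the bins, were read at the same places. They came from embryos at 4 cells (4C, 44 h), at 8 cells grown without (8C, 56 h) or with 50 μg/ml α-amanitin (8A, 56 h), from morulae (MO, 122 h) and blastocysts (BL, 172 h), and from the inner cell mass (ICM) isolated by immunosurgery and trophectoderm (TE) cut from blastocysts. The mark found at 2C was mostly still there at 4C. Kept bins were marked in 94.5% and 96.1% of cases in the 4C libraries and gained bins in 90.02% and 90.3%. Lost bins were marked in 19.9% and 26.7% of cases, above the 6.75% and 7.27% of all autosomal bins. Of the lost bins, 55.2% were marked in none of the 4 libraries of 4C and 8C and 6.84% in all 4, while 77.1% of gained bins were marked in all 4.

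The 8-cell embryos resembled the 4C embryos, with and without α-amanitin. At 8C kept bins were marked in 94.4% ± 0.781 of cases (SD, n = 2), gained bins in 87.3% ± 0.638 and lost bins in 24.5% ± 0.586. In the 8A libraries the values were 93.7% ± 0.545, 91.7% ± 0.425 and 17.3% ± 0.495. The 8A libraries were thus lower than the 8C libraries at lost bins and higher at gained bins, with no overlap between the pairs of libraries, while 7.45% of all autosomal bins were marked in 8A and 6.92% at 8C on average. At kept bins the 2 groups overlapped, with 93.9% and 95.0% at 8C and 93.3% and 94.04% in 8A.

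From the morula on, gained bins were more often marked than kept bins. Kept bins were marked in 13.9% and 18.5% of cases at MO and gained bins in 45.9% and 52.7%, with 6.63% and 8.72% for lost bins and 4.51% and 5.81% for all autosomal bins. The order was the same in BL (18.4% ± 3.27 kept, 48.8% ± 4.93 gained, SD, n = 2), ICM (10.4% ± 1.47 and 38.5% ± 3.70) and TE (21.8% ± 0.259 and 55.3% ± 0.510). In each of these 8 libraries the gained share exceeded the kept share. At 4C, 8C and 8A the order had been the reverse, with kept bins marked more often on average than gained bins.

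**Figure D5:**
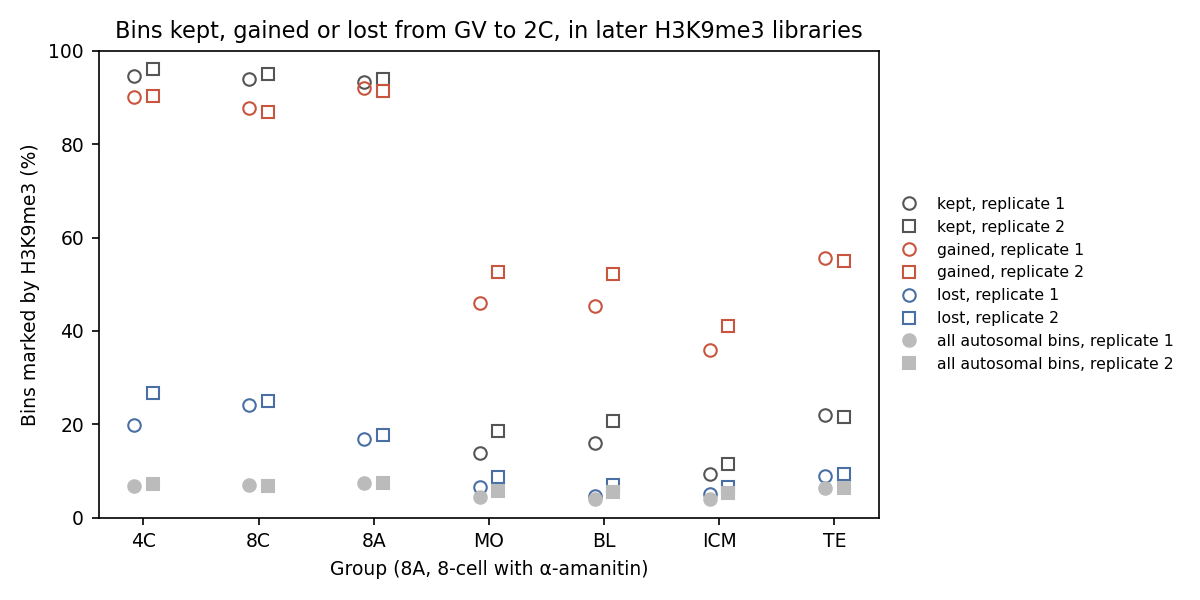
Percentage of kept, gained and lost bins, and of all autosomal bins, marked by H3K9me3 in each later library, by group in order of development (8A is the 8-cell group with α-amanitin). Kept and gained bins are both above 86% through the 8-cell groups, and from MO on gained bins lie between 35% and 56% while kept bins lie at 22% or less.

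Within gained bins the share still marked at MO followed the oocyte state. Gained bins with H3K4me3 and H3K27me3 in the oocyte were marked in 76.5% and 84.5% of cases in the MO libraries. The shares were 55.6% and 64.4% with H3K27me3 alone, 34.3% and 42.9% with H3K4me3 alone (140 bins), and 18.2% and 21.7% with neither. The MO share over all bins of each state is not given here, so the order may not be particular to gained bins. Kept bins showed the same order, with 34.6% and 43.4% for H3K27me3 alone and 10.6% and 14.6% for neither. Compared within an oocyte state, gained bins exceeded kept bins with H3K27me3 alone and with neither mark. With both marks the order turned, as 89.1% and 93.5% of the 46 kept bins of that state were marked.

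The longest kept runs had H3K27me3 over most of their length at 2C, and H3K9me3 covered less of them at MO than at 4C. The longest, chr18:8050001-8240000 (190 kb), had 99.6% and 99.7% of its bases under H3K9me3 peaks in GV and 99.3% and 99.1% at 2C. H3K27me3 covered 0 and 1.47% of it in GV and 75.7% and 89.4% at 2C, and no H3K4me3 or H3K27ac peak touched it. H3K9me3 covered 99.5% and 99.8% of it at 4C and 6.11% and 14.4% at MO. The next were chr25:40990001-41125000 (135 kb) and chr21:57590001-57720000 (130 kb), where H3K27me3 at 2C covered 79.6% and 77.0%, and 77.2% and 82.6%. H3K9me3 covered 96.4% and 96.9% of the first of these at 4C and 1.48% and 2.96% at MO, and 96.3% and 99.1% of the other at 4C and 0 and 3.85% at MO.

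The longest gained runs had H3K27me3 and H3K4me3 in the oocyte. On chr16:240001-340000 (100 kb) no base was under H3K9me3 peaks in GV, and 91.6% and 93.4% were at 2C. H3K27me3 covered all of it at both stages, while H3K4me3 went from 40.9% and 65.3% in GV to 0.8% and 0 at 2C. The run on chr14:2575001-2650000 (75 kb) was likewise free of H3K9me3 in GV and 90.4% and 94.7% covered at 2C, but H3K4me3 stayed at 58.9% and 59.2% at 2C after 57.1% and 71.5% in GV. The run on chr11:104670001-104730000 (60 kb) was 92.3% and 98.0% covered at 2C and wholly covered in both MO libraries.

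The longest lost runs were short beside these. On chr17:47655001-47705000 (50 kb, 1 of 2 lost runs of that length) H3K9me3 covered 88.4% and 96.8% in GV and nothing at 2C, and no other mark was called there at either stage. On chr16:53270001-53315000 (45 kb) it went from 97.3% and 96.9% to nothing. The run on chr8:69015001-69060000 (45 kb) went from 89.8% in both GV libraries to 3.11% and 4.00%, and it carried H3K27me3 at both stages, 85.8% and 88.9% in GV and 53.8% and 68.4% at 2C. Genes and repeats in these regions are not reported, since no annotation of the build of the peaks was used.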

How the data were processed

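The lists were made by the authors, 1 per library, and hold chromosome, start, end, name and a whole number. The submitters' processing notes name SICER, SAMtools 1.9, BWA 0.7.9a, cutadapt 1.8.3, Trim Galore 0.4.0 and Picard 2.26.10 and, as the genome build, ARS-UCD1.2. The lists themselves carry the name of another caller, epic2. The sources used here do not give peak cutoffs or how duplicate and multiply aligned reads were handled. The deposited number is a score of unknown meaning, used only to rank peaks within a list. Peak edges lie on a 200 bp grid for H3K9me3 and H3K27me3 and on a 50 bp grid for H3K4me3 and H3K27ac, so covered shares are not comparable between those pairs of marks. Depth is unknown, and no interval or detection floor could be given.

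Covered lengths, bins, classes and overlaps were computed with Python 3.11.15, NumPy 2.4.6, pandas 2.3.3 and SciPy 1.17.1, and the bin code was tested on simulated lists. The stages were compared with exact permutation tests over libraries, and relative coverage is the covered percentage of a class over that of the autosomes in the same library. Regions were named by rule: the 3 longest runs of each class and the 3 windows of 1 Mb with most lost and most gained bins, at most 1 per chromosome, and the 3 autosomes with the lowest and the highest ratio. The members, lists and tests were chosen with earlier results of these data known. Alternatives were other bin sizes and limits, trimmed or joined lists, X and scaffolds, left-out libraries and a replicate block. Gene groups were planned and not run, since the gene table given is of ARS-UCD2.0.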

Additional observations from a re-analysis of the deposited data

Results flagged for a closer look

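H3K9me3 outside the autosomes was not part of the comparison. On X it covered 9.93 Mb and 9.01 Mb in GV (mean 9.47 Mb) and 3.52 Mb and 3.27 Mb at 2C, a log2 ratio of -1.48. The sex of the 2C embryos was not considered, and the part of X copy number in the X ratio was not tested. On unplaced scaffolds it covered 5.19 Mb and 4.82 Mb in GV (mean 5.01 Mb) and 8.24 Mb and 6.53 Mb at 2C, a log2 ratio of 0.55, so the scaffolds went against the autosomes and X. Both gave the smallest p of the design (exact permutation test, n = 2 a group, p = 0.333).

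In several bin classes every 2C library of a mark lay above every GV library, while in bins marked by H3K9me3 in no GV or 2C library (unmarked bins) every 2C library lay below. As log2 ratios of covered percentage, H3K27me3 was at 2.27 in kept, 0.48 in lost and 0.38 in gained bins against -2.39 in unmarked bins. H3K27ac was at 2.05 in kept and 1.73 in lost bins against -1.20 in unmarked bins. H3K4me3 was at 1.04 in kept and 0.94 in lost bins against -0.51 in unmarked bins. The difference between these classes was not tested.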

How the results depend on the processing

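Of 122 alternative values, 72 kept their direction and moved by less than the replicate spread, 49 moved further and 1 turned its sign. For covered length, domain length and the other marks, every value without a single library is among the 72. Leaving out 1 of 2 libraries moves a group mean by no more than the gap between those 2. The count of 72 is therefore no measure of robustness. The log2 ratio of covered length was -0.59 with X, -0.55 with X and scaffolds and -0.55 with peaks under 3 kb apart joined. Pairing libraries by replicate number (replicate block) gave -0.56 (exact sign-flip test, p = 0.5), and the numbers share only a label, since same-numbered libraries did not deviate together (correlation -0.01). The lost share was 32.7% in 10 kb bins, 28.0% for any covered base, 34.6% at 80% covered, 18.4% and 17.1% with lists trimmed by score and by score per kb, and 39.6% to 41.9% without single libraries. The gained share under the same settings was 15.2%, 18.2%, 15.8%, 24.4% and 22.2%, and 19.8% to 23.5%. Autosomes lower in both 2C libraries numbered 11 under either trimming, where lists of equal length cannot be lower on all 29.

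Relative log2 ratios of other marks moved as follows. Counting bins at 50% covered gave H3K4me3 1.30 (kept), 1.52 (lost) and -0.15 (gained), H3K27ac 4.36 (lost) and H3K27me3 1.43 (gained). Counting any covered base gave H3K4me3 1.32 (lost) and 0.12 (gained, the reversal), H3K27ac 2.80 (kept) and 2.30 (lost), and H3K27me3 3.03, 1.72 and 1.30 (kept, lost, gained). Classes trimmed by score gave H3K4me3 1.69 (kept) and -0.0069 (gained), H3K27ac 3.38, 2.55 and -0.12 (kept, lost, gained), and H3K27me3 1.83 (lost) and 1.59 (gained). Classes trimmed by score per kb, chosen after seeing the data like the runs without single libraries of another mark, gave H3K4me3 1.66 (kept), H3K27ac 2.70 (lost), and H3K27me3 1.72 (lost) and 1.51 (gained). With classes trimmed by score, 96.8% of kept, 35.4% of lost and 88.1% of gained bins were marked at 4C and 39.99% of gained bins at MO. Except where the setting itself changes the list length or the libraries required, the cause was not tested. Unknown depth limits every statement on amount.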
